A study of Mus musculus with 20 samples.

Results

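The gene sets described here are the interleukin, chemokine and JAK-STAT sets of a gene set enrichment study of mouse myeloid cells and melanoma lines. A set was taken where its name contained INTERLEUKIN, CYTOKINE, CHEMOKINE, JAK, STAT3, STAT5 or IL followed by a number, and none of the words for interferon, Toll-like receptors, lipopolysaccharide, NF-kB or tumour necrosis factor. The rule found 75 sets. Of these, 65 are described as the main list, and 10 whose names end in DN, and which hold genes that go down in the named condition, are given apart. The reports listed 3883 sets in each comparison of myeloid cells and 3871 in the comparison of the cultured lines, 3886 different sets in all, and all 65 sets of the main list were listed in all 7 comparisons. The rule used set names and no measured value.

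Interleukins and chemokines are secreted proteins through which leukocytes direct each other's growth, movement and activation. Many interleukin receptors have no enzyme of their own and work through Janus kinases (JAK), which are bound to the receptor tails and phosphorylate STAT proteins that then enter the nucleus and switch genes on. Receptors are built from shared chains, so cytokines group by the chain they use: the common gamma chain serves IL-2, IL-4 and IL-7, the beta common chain serves IL-3, IL-5 and GM-CSF, and gp130 serves IL-6 and its relatives. IL-1 and its relatives use a separate route through MyD88, and chemokines use receptors coupled to G proteins. In bone marrow these signals set how many neutrophils, monocytes, eosinophils and lymphocytes are made, and tumours are known to disturb that output.

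RNA was sequenced from 20 libraries of C57BL/6 mouse material. Myeloid cells, here meaning what is left of bone marrow or spleen after depletion of cells bearing the T cell marker CD3e, gave 14 libraries. Bone marrow was represented by 3 libraries of B16F10-bearing animals, 2 of YUMM3.3-bearing animals and 3 of healthy animals, and spleen by 2 libraries of each condition. Cultures of the melanoma lines themselves gave 3 libraries of YUMM3.3 and 3 of B16F10. B16F10 is a transplantable melanoma line picked for its spread to the lung, and the YUMM3.3 cells were grown from a melanoma of an engineered mouse. All animals were of the C57BL/6 strain and adult, all myeloid libraries went through the same depletion, and the cultured cells were kept on a plate for 4 days. The labels do not say how many animals each library holds, how long tumours grew, or where they were placed.

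What is held for each comparison is a normalised enrichment score (NES) for each gene set, which says how far the genes of the set gather at one end of the ranking of all genes between a pair of groups. NES is signed here so that a positive value means higher in the first-named group. A set was called at the authors' deposited false discovery rate q below 0.05. There is 1 value per set and comparison, with no spread between libraries. Levels of single genes, marker genes included, were not analysed here, so the myeloid label could not be checked against them. The sequenced RNA is from bulk cells, where fewer cells of a type and less RNA per cell cannot be told apart. In the 4 comparisons with healthy animals, the scores as deposited are negative in the reports that name the tumour-bearing group first and positive in those that name the healthy group first, and their signs were turned for every value given here. In the other comparisons the deposited signs were kept. A myeloid report was taken to list what was higher in the group it names first, whatever its sign, and a reversal of all 3 comparisons of a tissue at once would not show in the data.

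With B16F10 tumours, 17 of the 65 sets were higher than in healthy bone marrow, which is 26.2% beside 20.1% of all listed sets. Only 1 set was lower, 1.54% beside 5.0% of all sets. In YUMM3.3-bearing against healthy marrow, 3 sets were higher and 2 lower, that is 4.62% beside 9.68% of all sets and 3.08% beside 6.52%. In B16F10-bearing against YUMM3.3-bearing marrow, 4 sets were higher and 4 lower, 6.15% each way beside 8.09% and 8.40% of all sets. The share called higher was above that of all sets in B16F10-bearing against healthy marrow and below it in every other comparison. Each of the 22 sources of sets was also counted once, by its middle set. Where a source had an even number of sets, the lower of the middle pair by NES was taken. So counted, B16F10-bearing against healthy marrow had 4 higher, 18.2%, and a median NES of -0.84. That choice can pull both down, as the RUTELLA sets had -1.01 and 1.93 there in the authors' deposited table and the first was taken. The higher of the pair was not tried. B16F10-bearing against healthy spleen also had 4 higher. All listed sets were not counted by source, so these counts have no like share beside them.

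In spleen, B16F10-bearing animals had 8 sets higher and 2 lower than healthy animals, 12.3% beside 16.6% of all sets and 3.08% beside 1.6%. YUMM3.3-bearing spleen had 2 sets higher and 4 lower than healthy spleen, 3.08% beside 15.6% of all sets and 6.15% beside 5.31%. B16F10-bearing spleen had 5 sets higher than YUMM3.3-bearing spleen, 7.69% beside 9.63% of all sets, and 0 lower, where 1.47% of all sets were lower. At a nominal p below 0.05, 1 set was lower there, beside 6.13% of all sets. In the cultured lines, 6 sets were higher in YUMM3.3 than in B16F10, 9.23% beside 11.8% of all sets. In the same cultures 0 were lower, beside 1.47%, and 3 were lower at a nominal p below 0.05, beside 5.06% of all sets. Most of these shares lie near those of all sets or below them, and such counts are not a result about cytokine sets as a class. The gap between 26.2% and 20.1% was not tested.

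**Figure D1:**
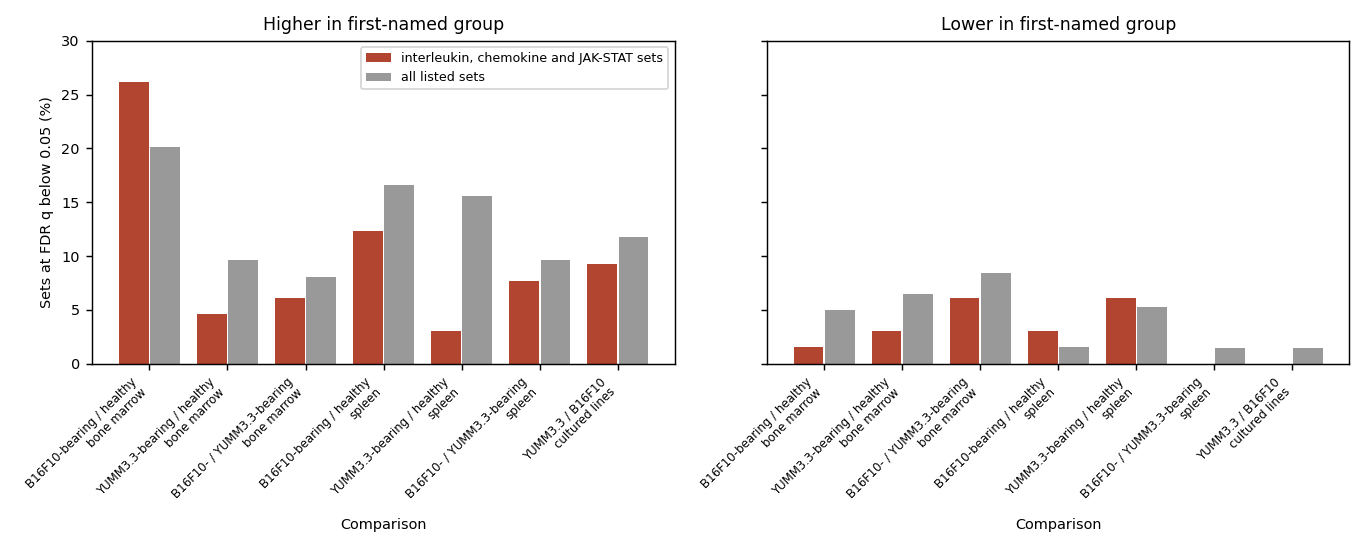
Share (%) of the 65 interleukin, chemokine and JAK-STAT sets and of all listed sets with a deposited FDR q below 0.05 in each comparison, on the left higher and on the right lower in the first-named group. The bar of B16F10-bearing against healthy bone marrow on the left, 26.2% beside 20.1%, is the 1 place on that side where the cytokine bar is the taller.

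The middle of the list also lay close to that of all sets in most comparisons. Over the 65 sets the median NES from the authors' deposited table was 0.94 in B16F10-bearing against healthy marrow, beside 0.96 over all sets, and 0.96 in B16F10-bearing against healthy spleen, beside 1.09. For the direct comparison of the tumours it was 0.99 in marrow, beside 0.72 over all sets, and 1.00 in spleen, beside 1.04, from the authors' deposited table. In YUMM3.3-bearing against healthy marrow the median from the authors' deposited table was -0.86, beside 0.74, and in spleen it was -0.90, beside -0.69. The cultures had a median of 1.11 in the authors' deposited table, beside 1.08. Few scores lie near 0, so a median can change sign when a few sets change side. Of the 65 sets, 35 had a positive NES in B16F10-bearing against healthy marrow and 27 in YUMM3.3-bearing against healthy marrow, where 56.2% and 53.1% of all sets were positive. In spleen, 44 were positive in B16F10-bearing against healthy and 27 in YUMM3.3-bearing against healthy animals, where 74.7% and 48.3% of all sets were positive. The comparisons of each tumour with healthy animals share the healthy libraries.

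Several sets describe the same pathway, and the genes they share were not counted, since member genes were not analysed here. The list holds 44 sets of pathway collections, 18 of them from Reactome, 13 from PID, 7 from BioCarta and 4 from KEGG, and 21 sets read out in experiments. Set sizes ran from 15 to 341 genes with a median of 37 genes. Of the 65 sets, 35 were called in at least 1 comparison and 30 in none. A single set was called in 4 comparisons, 6 sets in 3, 8 sets in 2 and 20 sets in 1. Calls per set were not counted over all listed sets, so these numbers are not a result about cytokine sets. KEGG_ADIPOCYTOKINE_SIGNALING_PATHWAY, on hormones of fat tissue, matches only by its letters and was not called in any comparison.

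Role groups are small, and their counts below stand beside the same shares of all sets: higher and lower, 20.1% and 5.0% in B16F10-bearing and 9.68% and 6.52% in YUMM3.3-bearing against healthy marrow, and 16.6% and 1.6% in B16F10-bearing and 15.6% and 5.31% in YUMM3.3-bearing against healthy spleen. Differences of role groups from all sets were not tested.

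IL-1 is an early inflammatory cytokine that drives neutrophil release and emergency production of myeloid cells. Its main Reactome set, REACTOME_INTERLEUKIN_1_SIGNALING with 90 genes in the myeloid comparisons, was higher in B16F10-bearing marrow with an NES of 2.53 and a q listed as 0 in the authors' deposited table, the largest NES of the 65 sets in that comparison. The authors' deposited table put 63% of its genes in the leading edge, the genes that carry the score. YUMM3.3-bearing marrow was above healthy marrow too, with an NES of 1.73 (q = 0.0223) in the authors' deposited table. The set was also higher in B16F10-bearing than in healthy spleen, at 1.65 (q = 0.0376) in the authors' deposited table. It was not called in the other comparisons, where the authors' deposited table gave -1.34 between the tumours in marrow, 1.04 in YUMM3.3-bearing against healthy spleen, 1.20 between the tumours in spleen and 0.75 in the cultures.

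The wider REACTOME_INTERLEUKIN_1_FAMILY_SIGNALING, which adds IL-18, IL-33 and relatives, was higher in B16F10-bearing than in healthy marrow at 2.25 (q = 2.27e-05) in the authors' deposited table. BIOCARTA_IL1R_PATHWAY, the receptor and its kinases, was higher there at 1.69 (q = 0.0243) in the authors' deposited table. These 3 were the called sets among 6 of the IL-1 family in that comparison. PID_IL1_PATHWAY, a smaller set of the receptor complex, followed another course than the Reactome IL-1 sets. Its NES in the authors' deposited table was 1.47 (q = 0.0817) in B16F10-bearing against healthy marrow and -1.41 (q = 0.153) in YUMM3.3-bearing against healthy marrow. It was higher in B16F10-bearing than in YUMM3.3-bearing marrow, at 1.85 (q = 0.0144) in the authors' deposited table. BIOCARTA_IL1R_PATHWAY had the signs of the PID set in these comparisons. Its NES was -1.04 in YUMM3.3-bearing against healthy marrow and 1.28 between the tumours in the authors' deposited table, neither called. MAHAJAN_RESPONSE_TO_IL1A_UP had -1.34 and -0.84 against healthy marrow for B16F10 and YUMM3.3 in the authors' deposited table, neither called. REACTOME_INTERLEUKIN_37_SIGNALING, on an IL-1 relative that dampens inflammation, was called in no comparison, with values between -1.46 and 0.98 in the authors' deposited table.

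The Reactome IL-1 set counts subunits of the proteasome, which degrades the inhibitor of NF-kB downstream of the receptor. KEGG_PROTEASOME, looked up after the values of the IL-1 sets were seen, was higher in B16F10-bearing than in healthy marrow at 2.52 in the authors' deposited table. Further values of KEGG_PROTEASOME in the authors' deposited table were 2.33 in YUMM3.3-bearing against healthy marrow and -2.0 between the tumours in marrow, both called. Against healthy spleen its values in the authors' deposited table were 2.06 for B16F10-bearing and 1.83 for YUMM3.3-bearing animals, both called. The proteasome set and the Reactome IL-1 set thus had the same sign in the 6 myeloid comparisons and opposite signs in the cultures, and the part of the proteasome genes in the IL-1 result was not tested.

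IL-3 and IL-5 signal through the beta common chain and act on mast cells, basophils, eosinophils and early progenitors. PID_IL3_PATHWAY was higher in B16F10-bearing than in healthy marrow at 2.05 (q = 0.000864) in the authors' deposited table. In spleen it was higher with B16F10 than in healthy animals at 1.67 (q = 0.0337) in the authors' deposited table. Between the tumours in spleen it was higher with B16F10 at 1.81 (q = 0.0176) in the authors' deposited table. YUMM3.3-bearing animals against healthy ones had 1.02 in marrow and -1.01 in spleen in the authors' deposited table, neither called. The IL-3 set was thus called in the B16F10 comparisons of both tissues and in neither comparison of YUMM3.3 with healthy animals, and between the tumours it was called in spleen but not in marrow, where the authors' deposited table gave 1.23. REACTOME_INTERLEUKIN_3_INTERLEUKIN_5_AND_GM_CSF_SIGNALING, which names the same receptors, was not called in any comparison, and its NES in the authors' deposited table was -1.19 and -1.58 against healthy marrow for B16F10 and YUMM3.3. PID_GMCSF_PATHWAY, outside the list by its name, was looked up beside these sets. In marrow it was higher with B16F10 than in healthy animals at 1.74 (q = 0.0177) and than with YUMM3.3 at 1.76 (q = 0.0269) in the authors' deposited table. YUMM3.3-bearing against healthy marrow had -1.48 (q = 0.119), and no spleen comparison was called, in the authors' deposited table.

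BYSTROEM_CORRELATED_WITH_IL5_UP holds genes whose expression in bone marrow followed serum IL-5, a cytokine that makes eosinophils. It was higher in YUMM3.3-bearing than in healthy marrow at 2.10 (q = 0.000387) in the authors' deposited table, the largest NES of the 65 sets there. B16F10-bearing marrow was above healthy marrow too, at 1.86 (q = 0.00663) in the authors' deposited table. Set against each other, B16F10-bearing marrow was lower than YUMM3.3-bearing marrow, at -2.02 (q = 0.00148) in the authors' deposited table. Its counterpart of genes that fall as IL-5 rises, BYSTROEM_CORRELATED_WITH_IL5_DN, was lower in YUMM3.3-bearing than in healthy marrow at -2.46 and higher in B16F10-bearing than in YUMM3.3-bearing marrow at 2.49 in the authors' deposited table, both with a q listed as 0. With B16F10 against healthy marrow the counterpart had 1.03 (q = 0.471) in the authors' deposited table. Both arms of the IL-5 signature were therefore called, in opposite directions, in YUMM3.3-bearing marrow. In spleen the first arm was not called, with 1.35, -1.29 and 1.47 in the authors' deposited table for B16F10-bearing against healthy, YUMM3.3-bearing against healthy and B16F10-bearing against YUMM3.3-bearing animals. The counterpart was higher in YUMM3.3-bearing than in healthy spleen at 1.85 (q = 0.00416) in the authors' deposited table, the reverse of its direction in marrow.

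IL-6, IL-27 and relatives signal through gp130 and mainly STAT3, which in marrow also carries the signal of G-CSF for neutrophil production. Of 13 such sets, 4 were higher in B16F10-bearing than in healthy marrow, where 20.1% of all sets were, 0 were lower, and the median NES from the authors' deposited table was 1.26. The called sets were PID_IL6_7_PATHWAY at 1.75 (q = 0.0163), BIOCARTA_IL6_PATHWAY at 1.73 (q = 0.0188), BROCKE_APOPTOSIS_REVERSED_BY_IL6 at 1.71 (q = 0.0214) and REACTOME_INTERLEUKIN_6_FAMILY_SIGNALING at 1.61 (q = 0.0399) in the authors' deposited table. In YUMM3.3-bearing against healthy marrow, 0 of the 13 were higher and 1 was lower, with a median of -0.92 from the authors' deposited table. That set was AZARE_STAT3_TARGETS, at -1.75 (q = 0.0304) in the authors' deposited table. None of the 4 IL-6 sets called with B16F10 was called with YUMM3.3, where their values in the authors' deposited table lay between -1.19 and -0.82. The difference itself was not called for any of the 4: between the tumours in marrow their values in the authors' deposited table ran from 1.19 to 1.45.

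Between the tumours in marrow, DAUER_STAT3_TARGETS_UP was higher with B16F10 at 1.69 (q = 0.0423) in the authors' deposited table. In spleen the called STAT3 set was BAKER_HEMATOPOIESIS_STAT3_TARGETS, genes under STAT3 in blood formation. It was higher with either tumour than in healthy spleen, at 1.80 (q = 0.00928) for B16F10 and 1.6 (q = 0.0392) for YUMM3.3 in the authors' deposited table. NUMATA_CSF3_SIGNALING_VIA_STAT3, the G-CSF set of the list, was called in no comparison, and its values against healthy animals in the authors' deposited table were -1.27 and 0.59 in marrow and 1.3 and -0.94 in spleen for B16F10 and YUMM3.3. PID_IL27_PATHWAY was called in none either and was negative in all 7 comparisons, between -1.47 and -0.80 in the authors' deposited table.

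IL-12 and IL-23 are made by myeloid cells and act mostly on T and natural killer cells through STAT4 and STAT3. Against healthy animals the 7 sets of this family parted by tissue, and by kind except in YUMM3.3-bearing against healthy marrow. There all 7 had a positive NES and 0 were called, with a median of 1.11 from the authors' deposited table. In B16F10-bearing against healthy marrow 3 Reactome sets were higher, led by REACTOME_GENE_AND_PROTEIN_EXPRESSION_BY_JAK_STAT_SIGNALING_AFTER_INTERLEUKIN_12_STIMULATION at 2.11 (q = 0.000376) in the authors' deposited table, with 71% of its 31 genes in the leading edge. That set lists products that lymphocytes change after IL-12, and it is nested in REACTOME_INTERLEUKIN_12_SIGNALING, at 1.77 (q = 0.0149), and REACTOME_INTERLEUKIN_12_FAMILY_SIGNALING, at 1.72 (q = 0.0211) in the authors' deposited table. The receptor and STAT4 sets of other collections were not higher there: PID_IL12_STAT4_PATHWAY had -1.08, BIOCARTA_IL12_PATHWAY -1.10 and PID_IL12_2PATHWAY -1.21 in the authors' deposited table, none called.

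In spleen the same receptor and STAT4 sets were lower in tumour-bearing animals. PID_IL12_STAT4_PATHWAY was lower with B16F10 at -2.08 (q = 0.00365) and with YUMM3.3 at -2.03 (q = 0.00608) against healthy spleen in the authors' deposited table. BIOCARTA_IL12_PATHWAY was lower with B16F10 at -1.83 (q = 0.0416) and with YUMM3.3 at -2.0 (q = 0.00703) in the authors' deposited table. PID_IL12_2PATHWAY was lower with YUMM3.3 at -1.94 (q = 0.0123), and with B16F10 it had -1.76 (q = 0.0608) in the authors' deposited table. The spleen comparisons share the healthy libraries, and between the tumours the values in the authors' deposited table were 0.65, 0.76 and 0.69 in the same order of sets, none called. The Reactome IL-12 sets were positive with either tumour against healthy spleen, between 0.82 and 1.33 in the authors' deposited table, none called. PID_IL23_PATHWAY was called in no comparison, with values between -1.44 and 1.39 in the authors' deposited table.

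The PID and BioCarta IL-12 sets hold T cell receptor genes besides the IL-12 receptor, and the libraries had been depleted through CD3e. KEGG_T_CELL_RECEPTOR_SIGNALING_PATHWAY, looked up after these values were seen, was lower in B16F10-bearing than in healthy spleen at -2.37, a called value, in the authors' deposited table. In YUMM3.3-bearing against healthy spleen it had -1.42 in the authors' deposited table, not called. PID_TCR_PATHWAY had -2.17, called, with B16F10 and -1.41, not called, with YUMM3.3 against healthy spleen in the authors' deposited table. T cell sets were therefore on the lower side together with the IL-12 sets, and the part of T cells left after depletion in that result was not tested.

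The common gamma chain is the shared receptor part of IL-2, IL-4 and IL-7, cytokines of lymphocyte growth. It was the largest group, with 16 sets, and most of it was not called. With B16F10 2 sets were higher and 1 lower than in healthy marrow, and the median NES from the authors' deposited table was -1.08. In YUMM3.3-bearing against healthy marrow 0 were called either way, and the median from the authors' deposited table was -1.12, with 13 of 16 sets negative. Against healthy spleen, B16F10-bearing animals had 1 set higher and 0 lower and YUMM3.3-bearing animals 0 higher and 1 lower. IL-2 sets of the pathway collections, 6 of them by name, were called in no comparison.

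IL-4 and IL-13 turn macrophages towards repair. REACTOME_INTERLEUKIN_4_AND_INTERLEUKIN_13_SIGNALING, whose genes include many targets of STAT3 and STAT6, was higher in B16F10-bearing than in healthy marrow at 1.98 (q = 0.00214) in the authors' deposited table. The set was also higher in cultured YUMM3.3 than in cultured B16F10 cells, with 1.80 (q = 0.00516) in the authors' deposited table. In B16F10-bearing against healthy spleen it had 1.52 (q = 0.0921), and between the tumours in spleen 1.62 (q = 0.0661), in the authors' deposited table, neither called. IL-7 supports the making of lymphocytes in marrow. BIOCARTA_IL7_PATHWAY, with 15 genes, was the 1 set lower in B16F10-bearing than in healthy marrow, at -1.87 (q = 0.0134) in the authors' deposited table. REACTOME_INTERLEUKIN_7_SIGNALING, with 28 genes, was lower in B16F10-bearing than in YUMM3.3-bearing marrow at -1.84 (q = 0.0106) in the authors' deposited table. Against healthy marrow it had -1.59 (q = 0.0792) with B16F10 and 1.53 (q = 0.0897) with YUMM3.3 in the authors' deposited table. For BIOCARTA_IL7_PATHWAY the authors' deposited table gave -1.50 (q = 0.107) in YUMM3.3-bearing against healthy marrow and 0.92 (q = 0.735) between the tumours. Both IL-7 sets had a negative NES with B16F10 against healthy marrow, and they had opposite signs with YUMM3.3 and in the direct comparison of the tumours.

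A T cell set, REACTOME_PHOSPHORYLATION_OF_CD3_AND_TCR_ZETA_CHAINS, looked up after values were seen, was lower in B16F10-bearing than in healthy marrow at -2.04 (q = 0.00221) in the authors' deposited table. It was lower in B16F10-bearing than in YUMM3.3-bearing marrow at -1.85 (q = 0.00987), and YUMM3.3-bearing against healthy marrow had 1.43 (q = 0.145), in the authors' deposited table. Its signs in these 3 comparisons were those of REACTOME_INTERLEUKIN_7_SIGNALING. The T cell sets given above for spleen, KEGG_T_CELL_RECEPTOR_SIGNALING_PATHWAY and PID_TCR_PATHWAY, were not called in these comparisons and did not share all these signs. With YUMM3.3 against healthy marrow they had -1.40 and -1.08 in the authors' deposited table, opposite in sign to REACTOME_INTERLEUKIN_7_SIGNALING. With B16F10 against healthy marrow both were negative, as was that set. Between the tumours the KEGG set was positive and the PID set negative. The part of remaining T cells in the IL-7 values was not tested.

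Chemokines guide cells out of and into tissues, and CXCR2 and its ligands bring neutrophils out of marrow. REACTOME_CHEMOKINE_RECEPTORS_BIND_CHEMOKINES, the ligands and receptors themselves, was higher in YUMM3.3-bearing than in healthy marrow at 1.63 (q = 0.0485) in the authors' deposited table. It was lower in B16F10-bearing than in YUMM3.3-bearing marrow at -1.97 (q = 0.00314) in the authors' deposited table. B16F10-bearing against healthy marrow had -1.35 (q = 0.218) in the authors' deposited table. In spleen it was not called, with 0.86 and -1.51 against healthy spleen for B16F10 and YUMM3.3 in the authors' deposited table. The other chemokine sets, KEGG_CHEMOKINE_SIGNALING_PATHWAY and the PID sets of CXCR1 and CXCR2 signalling by IL-8, were called in no comparison, with values from -1.38 to 1.48 in the authors' deposited table. KEGG_CYTOKINE_CYTOKINE_RECEPTOR_INTERACTION, a broad list of ligands and receptors, was not called either, and it had -1.51 with B16F10 and 1.31 with YUMM3.3 against healthy marrow in the authors' deposited table.

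IL-17 and the IL-20 family act on epithelium and fibroblasts, where IL-17 raises factors that call neutrophils. REACTOME_INTERLEUKIN_17_SIGNALING was lower in YUMM3.3-bearing than in healthy marrow at -1.79 (q = 0.0254) in the authors' deposited table. It was higher in B16F10-bearing than in YUMM3.3-bearing marrow at 1.88 (q = 0.0118) in the authors' deposited table. Against healthy marrow B16F10 had 1.41 (q = 0.112) in the authors' deposited table. REACTOME_INTERLEUKIN_20_FAMILY_SIGNALING was likewise higher in B16F10-bearing than in YUMM3.3-bearing marrow, at 1.86 (q = 0.0131) in the authors' deposited table. Together with PID_IL1_PATHWAY and DAUER_STAT3_TARGETS_UP, these were the 4 sets higher with B16F10 in the direct comparison of tumours in marrow. The 4 lower were the IL-5, chemokine and IL-7 sets given above and WALLACE_JAK2_TARGETS_UP, at -1.64 (q = 0.0471) in the authors' deposited table. REACTOME_INTERLEUKIN_10_SIGNALING, on the main cytokine that ends inflammation, was called in no comparison, with values from -1.29 to 1.44 in the authors' deposited table.

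**Figure D2:**
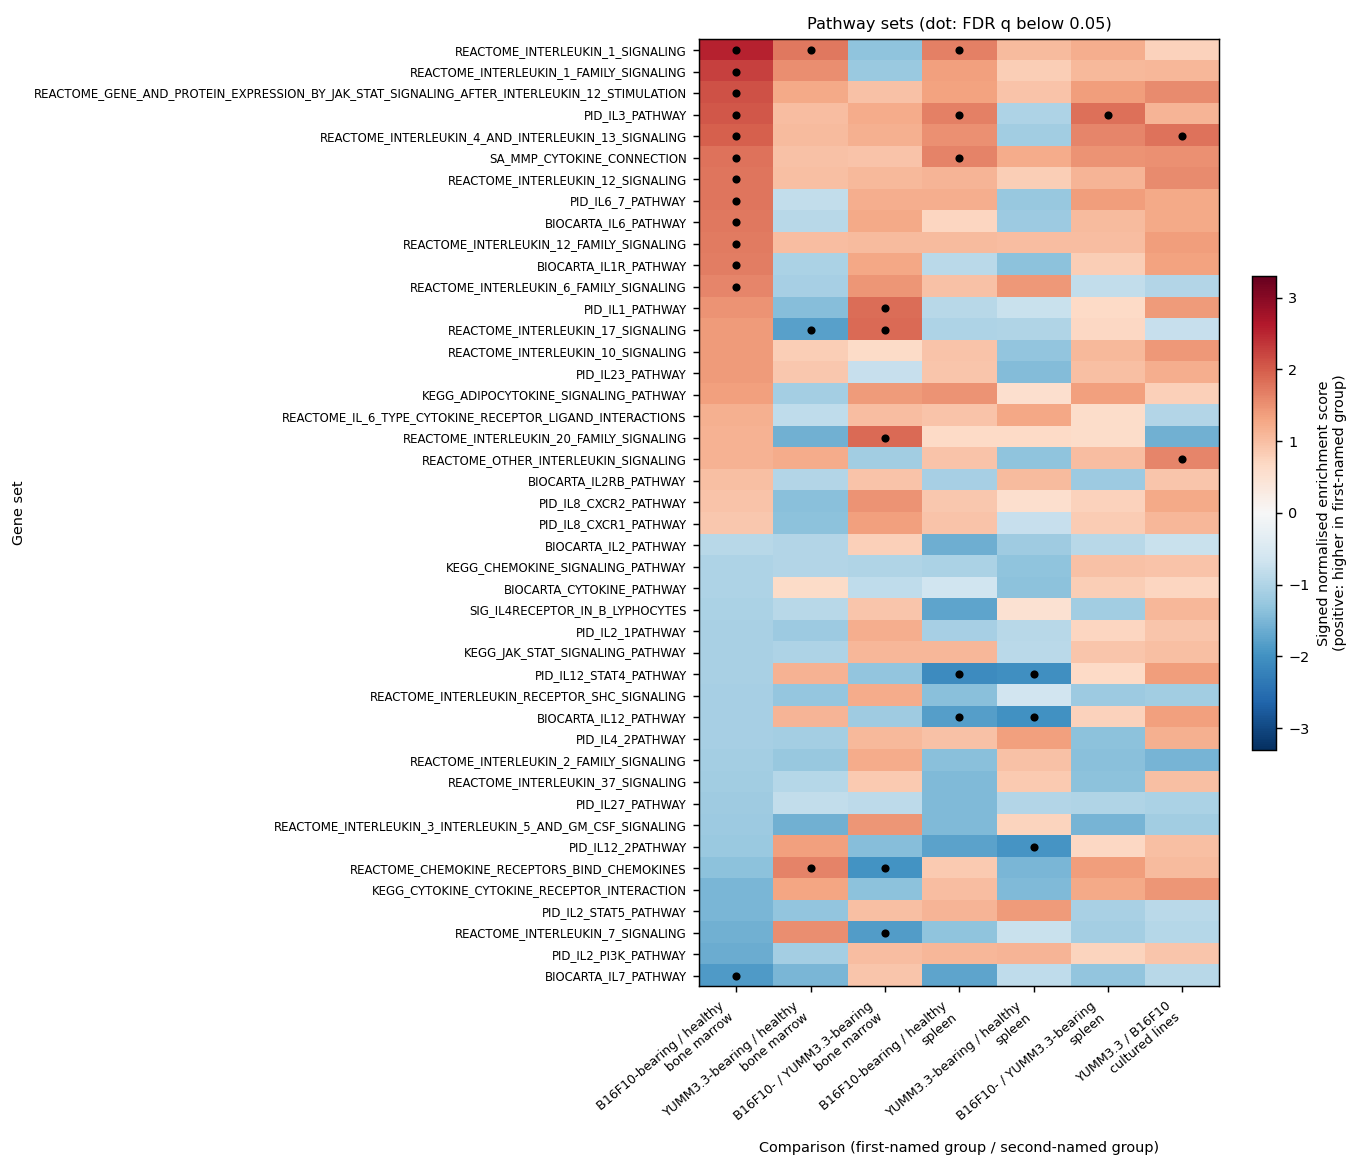
Signed NES of the 44 sets of pathway collections (down the page) in the 7 comparisons (across), ordered by B16F10-bearing against healthy bone marrow, with red for higher and blue for lower in the first-named group and a dot for a deposited FDR q below 0.05. The first column holds 12 dots on the higher side, the second has dots for the IL-1, IL-17 and chemokine sets, and the spleen columns against healthy animals hold the blue dots of the IL-12 sets.

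The JAK-STAT sets proper numbered 12, some of them also counted as STAT3 or IL-12 sets. In B16F10-bearing against healthy spleen all 12 had a positive NES and 3 were called, and the median from the authors' deposited table was 1.32. In the same comparison 74.7% of all sets were positive. WIERENGA_STAT5A_TARGETS_GROUP1 and WIERENGA_STAT5A_TARGETS_UP hold genes raised by active STAT5A in human cord blood progenitors. They were higher in B16F10-bearing than in healthy spleen at 1.84 (q = 0.00571) and 1.75 (q = 0.0155) in the authors' deposited table. Between the tumours in spleen they were higher with B16F10 at 1.90 (q = 0.00776) and 1.91 (q = 0.00667) in the authors' deposited table. YUMM3.3-bearing against healthy spleen had -1.40 (q = 0.165) and -1.51 (q = 0.109) in the authors' deposited table, neither called. In marrow the first was higher in B16F10-bearing than in healthy animals at 1.68 (q = 0.0274), and the other had 1.5 (q = 0.0736) in the authors' deposited table. WIERENGA_STAT5A_TARGETS_GROUP2, from the same source, was called in no comparison. With B16F10 it had 1.17 against healthy spleen and -1.24 against healthy marrow in the authors' deposited table. Between the tumours in spleen it had 1.41 (q = 0.178) in the authors' deposited table. The textbook set, KEGG_JAK_STAT_SIGNALING_PATHWAY, was called in no comparison, with values from -1.08 to 1.10 in the authors' deposited table.

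ZHENG_IL22_SIGNALING_UP, genes raised by IL-22 in skin, was called in the spleen comparisons in which WIERENGA_STAT5A_TARGETS_GROUP1 and WIERENGA_STAT5A_TARGETS_UP were, and in marrow too. It was higher in B16F10-bearing than in healthy marrow at 2.09 (q = 0.000521) and than in healthy spleen at 1.77 (q = 0.0131) in the authors' deposited table. Between the tumours in spleen it was higher with B16F10 at 1.89 (q = 0.00822) in the authors' deposited table. YUMM3.3-bearing against healthy spleen had -1.69 (q = 0.0523) in the authors' deposited table, just outside the threshold. Its counterpart of genes lowered by IL-22 is ZHENG_IL22_SIGNALING_DN. This set was called only in B16F10-bearing against healthy spleen, higher at 1.86 (q = 0.00449) in the authors' deposited table. Genes raised and genes lowered by IL-22 were thus both higher there. In B16F10-bearing against healthy marrow the counterpart had -0.79 in the authors' deposited table, not called. The set called most often was RUTELLA_RESPONSE_TO_HGF_VS_CSF2RB_AND_IL4_UP, 341 genes higher in human monocytes after hepatocyte growth factor than after the other treatment in its name, so IL-4 stands on its lower side. It was higher in B16F10-bearing than in healthy marrow at 1.93 (q = 0.00366) and than in healthy spleen at 1.62 (q = 0.0479) in the authors' deposited table. It was lower in YUMM3.3-bearing than in healthy spleen at -2.08 (q = 0.00412) in the authors' deposited table. Between the tumours in spleen it was higher with B16F10 at 2.08 (q = 0.00043) in the authors' deposited table, with the smallest q of the 65 sets there. The 5 sets higher with B16F10 between the tumours in spleen were this set, WIERENGA_STAT5A_TARGETS_GROUP1 and WIERENGA_STAT5A_TARGETS_UP of 1 source, ZHENG_IL22_SIGNALING_UP and PID_IL3_PATHWAY. All 5 had a positive NES with B16F10 and a negative NES with YUMM3.3 against healthy spleen.

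REACTOME_NEUTROPHIL_DEGRANULATION, looked up after these values were seen, was higher in B16F10-bearing than in healthy marrow at 2.69 and than in healthy spleen at 1.93 in the authors' deposited table. Between the tumours in spleen it was higher with B16F10 at 2.24 in the authors' deposited table. YUMM3.3-bearing against healthy spleen had -1.54 in the authors' deposited table, not called. The neutrophil set had the same sign as the IL-22 set and WIERENGA_STAT5A_TARGETS_GROUP1 in all 6 myeloid comparisons, and the part of neutrophil numbers in these results was not tested.

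**Figure D3:**
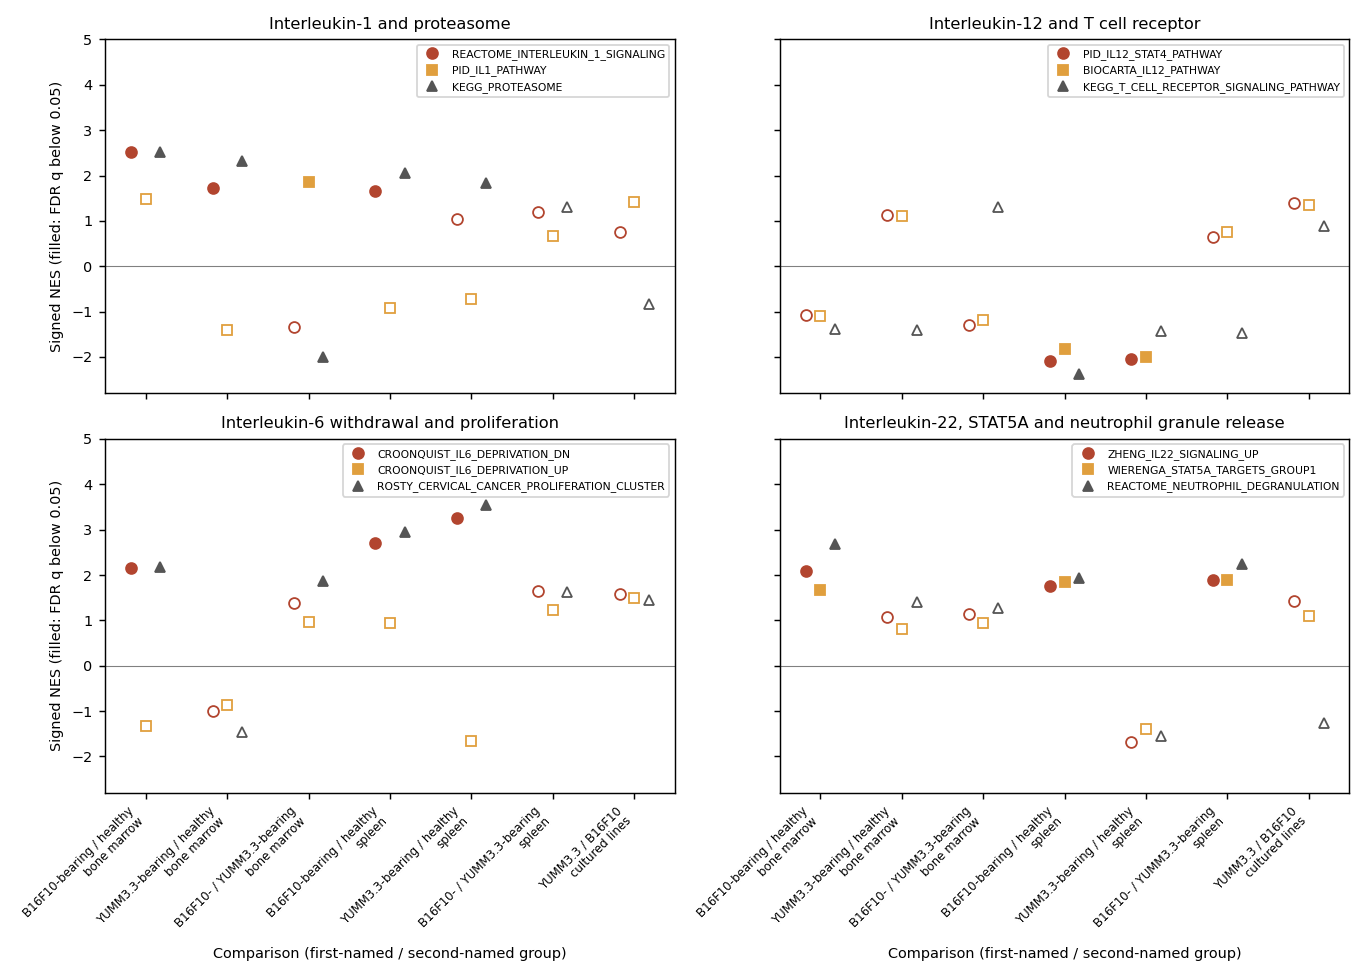
Signed NES of 2 cytokine sets and 1 companion set per panel (vertical axis) in the 7 comparisons (horizontal axis), with filled points for a deposited FDR q below 0.05. The proteasome set lies on the side of the Reactome IL-1 set in the 6 myeloid comparisons, the T cell receptor set is lowest in B16F10-bearing against healthy spleen, and the proliferation set follows the set of genes lost on IL-6 withdrawal in all 7 comparisons.

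The 21 experimental signatures and 44 pathway sets were also counted apart. In B16F10-bearing against healthy marrow 12 of 44 pathway sets and 5 of 21 signatures were higher, where 20.1% of all sets were. For B16F10-bearing against healthy spleen it was 3 of 44 pathway sets and 5 of 21 signatures, where 16.6% of all sets were higher. In that comparison 2 pathway sets and 0 signatures were lower, where 1.6% of all sets were. In YUMM3.3-bearing against healthy spleen 3 of 44 pathway sets and 1 of 21 signatures were lower, where 5.31% of all sets were. In the same comparison 0 pathway sets and 2 signatures were higher, where 15.6% of all sets were. The signatures higher there were WALLACE_JAK2_TARGETS_UP, at 1.73 (q = 0.0137) in the authors' deposited table, and the STAT3 set of blood formation given above. SA_MMP_CYTOKINE_CONNECTION, on cytokines that induce matrix-cutting enzymes, was higher in B16F10-bearing animals in marrow at 1.78 (q = 0.0133) and in spleen at 1.64 (q = 0.042) in the authors' deposited table.

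**Figure D4:**
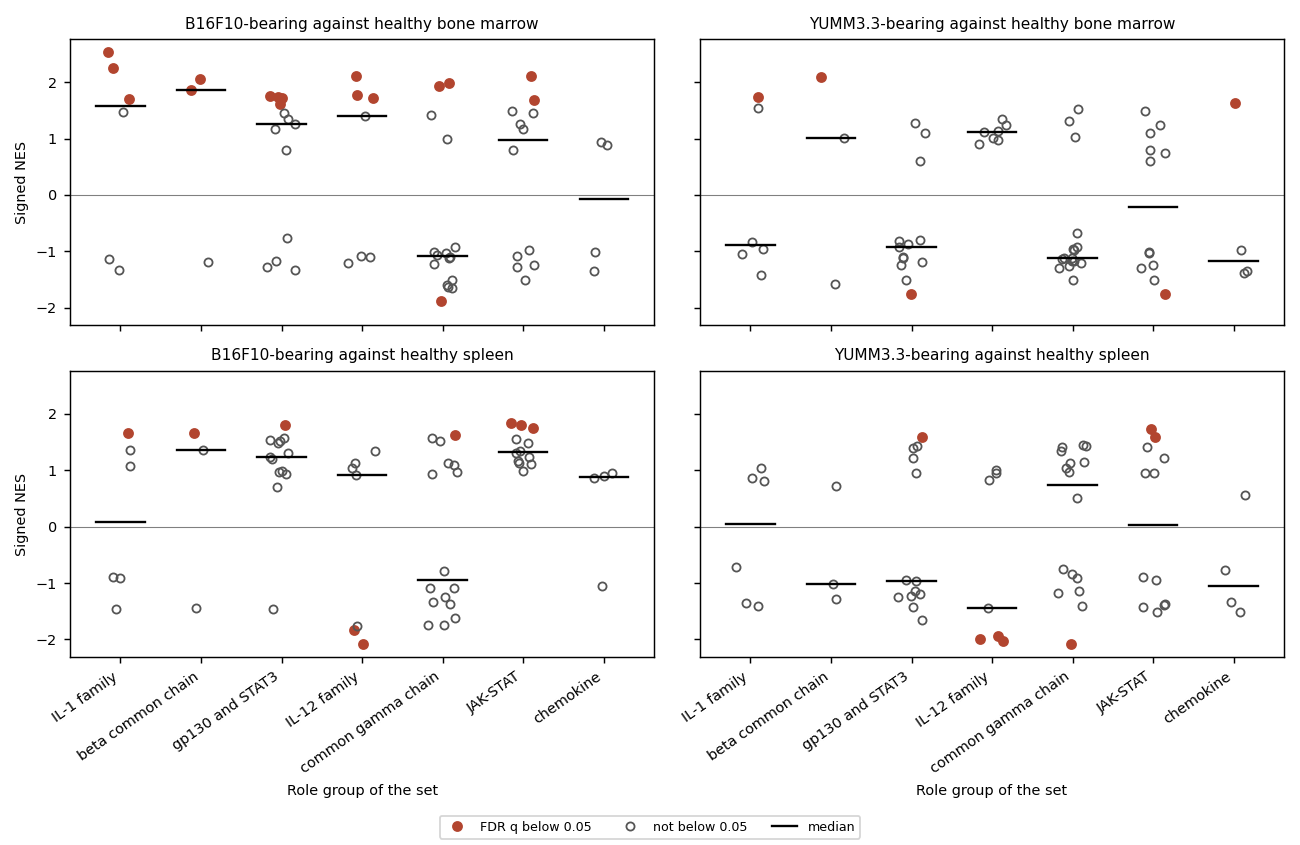
Signed NES (vertical axis) of each set in 7 of the role groups (horizontal axis) for each tumour against healthy animals in marrow and spleen, with red points for a deposited FDR q below 0.05, open points otherwise and a bar at the median of the group. The IL-12 group holds 3 red points above 0 in B16F10-bearing against healthy marrow and 3 below 0 in YUMM3.3-bearing against healthy spleen, and the common gamma chain group has most points below 0 in both marrow panels.

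The 10 sets whose names end in DN gave 3 higher and 0 lower in B16F10-bearing against healthy marrow and 0 higher and 2 lower in YUMM3.3-bearing against healthy marrow. Of all sets, 20.1% were higher and 5.0% lower in the first of these and 9.68% and 6.52% in the second. Against healthy spleen they gave 3 higher and 0 lower with B16F10, where 16.6% and 1.6% of all sets were called, and 4 higher and 2 lower with YUMM3.3, where 15.6% and 5.31% were. CROONQUIST_IL6_DEPRIVATION_DN, genes lost by human myeloma cells when IL-6 is withdrawn, had the largest NES among the 75 sets, 3.25 in YUMM3.3-bearing against healthy spleen in the authors' deposited table. With B16F10 it was higher than in healthy animals at 2.71 in spleen and 2.15 in marrow in the authors' deposited table. YUMM3.3-bearing against healthy marrow had -1.0 (q = 0.612) in the authors' deposited table. These are mostly genes of dividing cells, and ROSTY_CERVICAL_CANCER_PROLIFERATION_CLUSTER, looked up after the values were seen, was called beside it at 3.55, 2.94 and 2.17 in the same comparisons in the authors' deposited table. Its counterpart CROONQUIST_IL6_DEPRIVATION_UP was called in no comparison, with -1.65 (q = 0.0614) in YUMM3.3-bearing against healthy spleen in the authors' deposited table, and the part of cell division in the first result was not tested.

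Other sets ending in DN were called too. MARZEC_IL2_SIGNALING_DN, genes lowered by IL-2 in a T cell lymphoma line, was lower in YUMM3.3-bearing than in healthy marrow at -2.15 (q = 0.0009) and higher in YUMM3.3-bearing than in healthy spleen at 1.73 (q = 0.0136) in the authors' deposited table. Between the tumours in marrow it was higher with B16F10 at 2.06 (q = 0.00236) in the authors' deposited table. DAUER_STAT3_TARGETS_DN was higher with B16F10 than in healthy marrow at 1.88 (q = 0.00584) and than in healthy spleen at 2.02 (q = 0.000304) in the authors' deposited table. Between the tumours it was not called, at 1.10 in marrow and 1.65 (q = 0.056) in spleen in the authors' deposited table. With YUMM3.3 it was higher than in healthy spleen at 1.83 (q = 0.00483), and in the cultures it was lower in YUMM3.3 than in B16F10 at -1.86 (q = 0.0103), in the authors' deposited table. WIERENGA_STAT5A_TARGETS_DN was lower in YUMM3.3-bearing than in healthy spleen at -2.08 (q = 0.00457) and higher in B16F10-bearing than in YUMM3.3-bearing spleen at 2.00 (q = 0.00219) in the authors' deposited table. Genes raised and genes lowered by STAT5A were thus both higher with B16F10 than with YUMM3.3 in spleen. RUTELLA_RESPONSE_TO_CSF2RB_AND_IL4_DN was higher in B16F10-bearing than in healthy marrow at 2.00 (q = 0.00178) in the authors' deposited table. The same set was lower in YUMM3.3-bearing than in healthy spleen at -1.95 (q = 0.0112) and higher in B16F10-bearing than in YUMM3.3-bearing spleen at 1.93 (q = 0.00472) in the authors' deposited table.

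**Figure D5:**
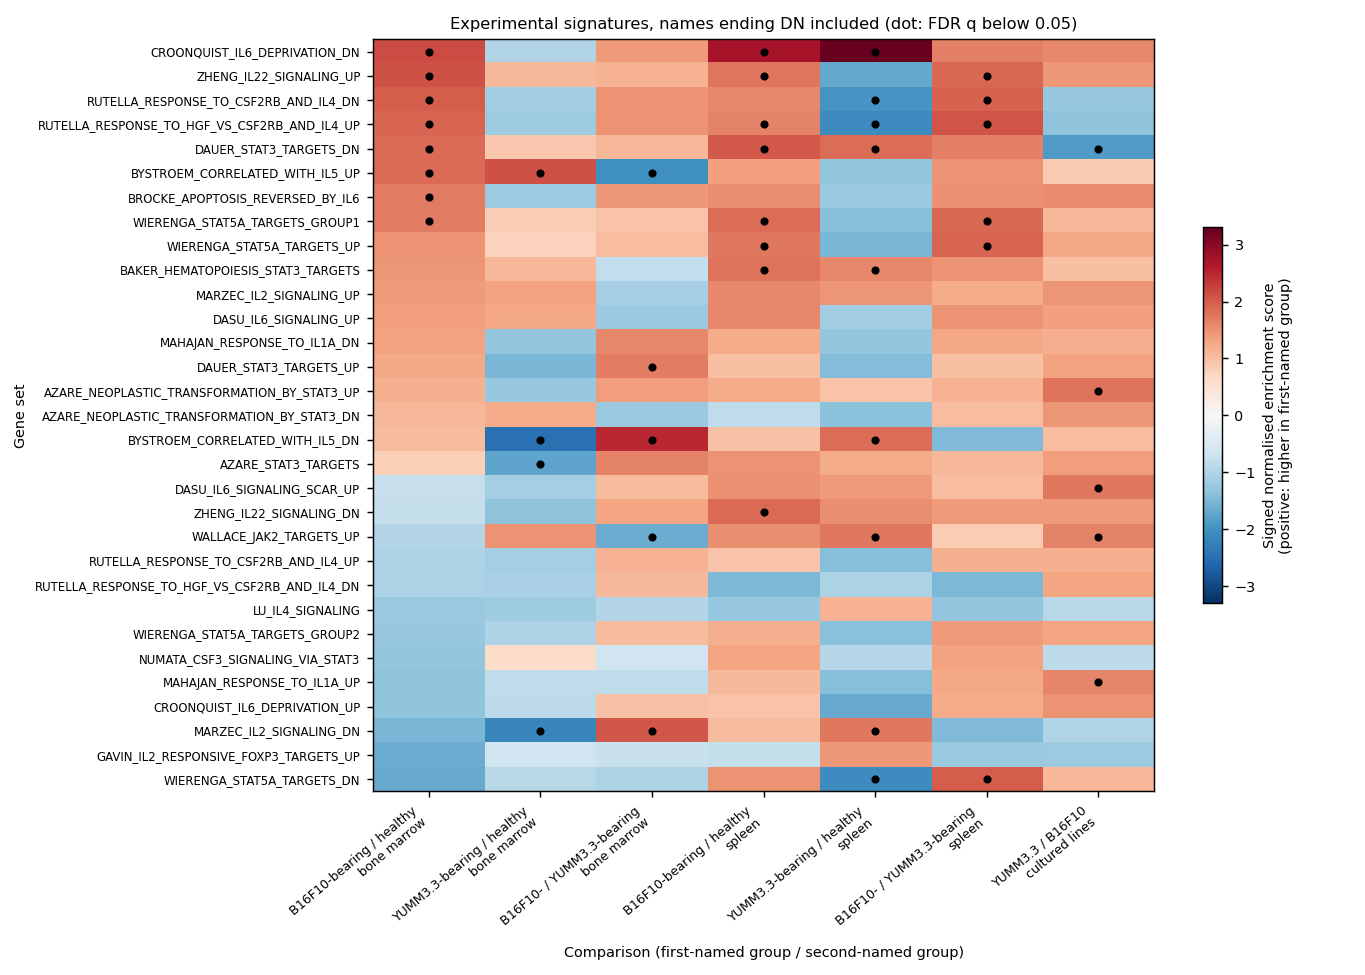
Signed NES of the 21 experimental signatures and the 10 sets ending in DN (down the page) in the 7 comparisons (across), with red for higher and blue for lower in the first-named group and a dot for a deposited FDR q below 0.05. The darkest cell is the set of genes lost on IL-6 withdrawal in YUMM3.3-bearing against healthy spleen, at 3.25, and the pair of IL-5 sets has opposite colours in YUMM3.3-bearing against healthy marrow.

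The cultured lines were compared to ask how the tumours' own cells differ. The 6 sets higher in YUMM3.3 than in B16F10 cultures were led by the IL-4 and IL-13 set given above and by AZARE_NEOPLASTIC_TRANSFORMATION_BY_STAT3_UP, genes raised in cells transformed by active STAT3, at 1.80 (q = 0.00589) in the authors' deposited table. DASU_IL6_SIGNALING_SCAR_UP, the response of scar fibroblasts to IL-6, was higher in YUMM3.3 at 1.75 (q = 0.0107) in the authors' deposited table. WALLACE_JAK2_TARGETS_UP had 1.65 (q = 0.0304), REACTOME_OTHER_INTERLEUKIN_SIGNALING 1.61 (q = 0.0394) and MAHAJAN_RESPONSE_TO_IL1A_UP 1.61 (q = 0.042) in the authors' deposited table, all higher in YUMM3.3. The lowest value was that of REACTOME_INTERLEUKIN_20_FAMILY_SIGNALING, -1.58 (q = 0.128) in the authors' deposited table, not called. Of the 6 sets, 4 were experimental signatures.

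The neighbouring classes of inflammatory sets are given for comparison. Of all sets, 5.0% were lower in B16F10-bearing and 6.52% in YUMM3.3-bearing against healthy marrow, and 1.6% and 5.31% against healthy spleen. Of 21 interferon sets, 12 were higher (57.1%, beside 20.1% of all sets) and 0 lower in B16F10-bearing than in healthy marrow, and 13 were higher (61.9%, beside 16.6%) and 0 lower in B16F10-bearing than in healthy spleen. YUMM3.3-bearing against healthy marrow had 2 higher (9.52%, beside 9.68%) and 1 lower (4.76%, beside 6.52%). In spleen 9 were higher (42.9%, beside 15.6%) and 0 lower. In the cultures 0 of 20 interferon sets were higher and 8 were lower in YUMM3.3 than in B16F10, where 1.47% of all sets were lower. Of 49 Toll, lipopolysaccharide, NF-kB and tumour necrosis factor sets, 19 were higher (38.8%, beside 20.1% of all sets) and 0 lower in B16F10-bearing than in healthy marrow, and 5 were higher (10.2%, beside 16.6%) and 0 lower in B16F10-bearing than in healthy spleen. Against healthy marrow, YUMM3.3-bearing animals had 2 higher (4.08%, beside 9.68%) and 4 lower (8.16%, beside 6.52%). Against healthy spleen they had 1 higher (2.04%, beside 15.6%) and 1 lower (2.04%, beside 5.31%). Differences between these classes and the cytokine sets were not tested.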

How the data were processed

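RNA-seq of 14 myeloid and 6 melanoma culture libraries was reported as 14 enrichment reports, 1 per direction for 7 comparisons. Per the submitters' processing notes, FastQC 0.11.8, STAR 2.7.1a, featureCounts 1.6.0, DESeq2 1.22.2 and the mm10 build were used, with no role given. Per the file headers, the deposited values are an enrichment score and a normalised score for each set, a nominal p-value, an FDR q-value, a family-wise p-value, and leading edge percentages in the score details. No source used here gives the ranking metric, permutation scheme or gene set release. Nominal p reached 0.00103 above 0, which relabelling so few libraries cannot give, so the deposited p and q do not measure the spread between animals. Depth is unknown.

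Each report was read as sets higher in its first-named group, the culture reports by their up and down labels, and NES was signed to that reading, which turns the deposited sign in the 4 comparisons with healthy animals. Sets were counted at q below 0.05 with Python 3.11.15 and pandas 2.3.3, beside all listed sets, and no test was added. The counting was tested on simulated reports. The members, role groups and companion sets were chosen with earlier results of these data known. Named sets were up to 6 called sets per comparison and direction by NES size, the leading pathway set of each role group, and sets chosen after their values were seen to complete a role group. Alternatives were q below 0.25, sets of 25 to 200 genes, and each source counted once by its middle set. Where a source had an even number of sets, the lower of the middle pair by NES was taken.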

Additional observations from a re-analysis of the deposited data

Results flagged for a closer look

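In 12 cases a set was called between the tumours while its NES had opposite signs against healthy animals, 7 in bone marrow and 5 in spleen. Between the tumours 8 sets of the list were called in marrow and 5 in spleen. The same share among all called sets was not counted, so these numbers are not a result about cytokine sets. The authors' deposited q does not measure the spread between animals, so a difference between animals was not tested, and the comparisons share libraries.

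In bone marrow, NES of B16F10-bearing against YUMM3.3-bearing animals in the authors' deposited table was 1.69 for DAUER_STAT3_TARGETS_UP, with 1.26 for B16F10 and -1.51 for YUMM3.3 against healthy animals. PID_IL1_PATHWAY had 1.85 between the tumours in the authors' deposited table, with 1.47 and -1.41 against healthy marrow for B16F10 and YUMM3.3. REACTOME_INTERLEUKIN_17_SIGNALING had 1.88, with 1.41 and -1.79 against healthy marrow in the authors' deposited table, and was the 1 set of these that was lower with YUMM3.3 at q below 0.05. REACTOME_INTERLEUKIN_20_FAMILY_SIGNALING had 1.86, with 1.15 and -1.59 against healthy marrow in the authors' deposited table. The remaining sets were lower with B16F10. REACTOME_CHEMOKINE_RECEPTORS_BIND_CHEMOKINES had -1.97, with -1.35 and 1.63 against healthy marrow in the authors' deposited table. REACTOME_INTERLEUKIN_7_SIGNALING had -1.84, with -1.59 and 1.53, and WALLACE_JAK2_TARGETS_UP had -1.64, with -0.98 and 1.5, in the authors' deposited table.

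In spleen, PID_IL3_PATHWAY had 1.81 between the tumours, with 1.67 and -1.01 against healthy animals for B16F10 and YUMM3.3 in the authors' deposited table. RUTELLA_RESPONSE_TO_HGF_VS_CSF2RB_AND_IL4_UP had 2.08, with 1.62 and -2.08, and was called in all 3 spleen comparisons of the authors' deposited table. WIERENGA_STAT5A_TARGETS_GROUP1 had 1.90, with 1.84 and -1.40, and WIERENGA_STAT5A_TARGETS_UP had 1.91, with 1.75 and -1.51, in the authors' deposited table. ZHENG_IL22_SIGNALING_UP had 1.89, with 1.77 and -1.69 in the authors' deposited table.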

How the results depend on the processing

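No paired analysis was possible because the reports hold 1 value per set and comparison and no value of a library, and for the same reason no library could be left out. Of 56 alternative values, 23 stayed within 1.5 times a count or 0.2 of a median, and 1 median changed sign. At q below 0.25, counts higher and lower were 27 and 9 in B16F10-bearing against healthy marrow, 9 and 11 in YUMM3.3-bearing against healthy marrow, 13 and 7 between the tumours in marrow, 19 and 9 in B16F10-bearing against healthy spleen, 9 and 21 in YUMM3.3-bearing against healthy spleen, 16 and 1 between the tumours in spleen, and 25 and 2 in the cultures. Over all 3883 sets of the myeloid comparisons, these counts were 1442 and 674, 774 and 781, and 828 and 695 in marrow, in the same order. In spleen they were 1347 and 225, 903 and 969, and 1103 and 198. In the cultures they were 1372 and 144 of 3871. At this threshold the share of the 65 sets called higher was above that of all sets in the cultures too. With the 44 sets of 25 to 200 genes, B16F10-bearing against healthy marrow had 13 higher and 0 lower and a median NES of 1.21. YUMM3.3-bearing against healthy marrow then had 3 higher and 1 lower. In the same sets B16F10-bearing against healthy spleen had 5 higher and 1 lower, and YUMM3.3-bearing against healthy spleen 0 higher and 2 lower. With each of 22 sources counted once, B16F10-bearing against healthy marrow had 4 higher and 0 lower with a median NES of -0.84, YUMM3.3-bearing against healthy marrow 1 and 1, and the tumours in marrow 1 and 2. In spleen B16F10-bearing against healthy animals then had 4 higher and 0 lower, YUMM3.3-bearing against healthy animals 1 lower and the tumours 2 higher, and the cultures had 2 higher. Fewer sets enter the last alternatives, which by itself lowers counts. All listed sets were not counted by size range or by source, so the counts of these alternatives have no like share beside them. Depth and the spread between libraries limit every value and could not be measured here.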
